A study of Caenorhabditis elegans with 6 samples.

Results

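The tRNA genes described here are the 44 genes with the biotype tRNA among the read clusters that the authors listed as uniquely annotated and significant in CLIP of ADR-1, a double-stranded RNA binding protein of Caenorhabditis elegans. They hold 58 of the 636 listed clusters (9.12%) and make up 44 of the 363 gene identifiers in the list. Members were taken by the biotype column alone. The CLIP libraries, replicates 1 to 3, came from animals whose ADR-1 carries a 3xFLAG tag (strain HAH59), crosslinked with ultraviolet light and pulled down with anti-FLAG beads. The Input libraries, also replicates 1 to 3, are size-matched RNA of the same lysates taken before the pulldown, so both groups carry the tag. All 6 libraries came from whole mixed-stage animals grown at 20 °C on a bacterial lawn.

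No library of an untagged strain or of a mock pulldown was analysed here, so RNA in contact with ADR-1 and RNA held by the beads cannot be told apart. The clusters were chosen by the authors for enrichment in these same libraries, which makes every CLIP over input value below a description of chosen regions. In whole animals, fewer cells of a type and less RNA per cell cannot be told apart, and tissue markers cannot be read from a list of clusters. Separate cultures for the replicates are not stated, and p-values therefore reflect only how these libraries vary, which may be technical.

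Transfer RNAs carry amino acids to the ribosome. They are made by RNA polymerase III as short precursors whose ends are trimmed by nucleases and, in some genes, whose intron is spliced out, and they fold into a cloverleaf of 4 short paired arms joined by loops, with the amino acid attached to the 3' end. In C. elegans tRNA genes occur in many copies, many of them on the X chromosome, and copies of one tRNA can be near identical. The sources used here do not give how reads that fit several copies were counted, and reads assigned to one copy may belong to another. The deposited sample labels hold the word unique without saying what it refers to. Shares of tRNA genes with a cluster depend on how such reads were handled. ADR-1 belongs to the ADAR family, whose members bind paired RNA. It lacks deaminase activity and is known to influence editing by ADR-2.

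All 58 clusters lay on exactly 1 tRNA gene of the RefSeq annotation of WBcel235, the assembly also called ce11, which gives locus names such as F47E1.t3 to identifiers that the deposited list leaves unnamed. Neither the list nor that table names the amino acid or anticodon, so the genes are described by locus. The deposited start counts from 0, since the deposited percentage of each cluster inside its tRNA matched RefSeq for 58 of 58 clusters that way, within 0.1, and for 48 of 58 with starts counted from 1. Coordinates below count from 1. Of the 58 clusters, 10 ran past the gene, 6 by 1 base at the 5' end and 4 by 1 base at the 3' end.

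The clusters covered parts of tRNAs, mostly toward the 3' end. In 32 of the 44 genes more covered bases lay beyond the midpoint of the gene than before it, and in 12 genes the reverse held. Of all covered bases, 63.5% (1246 bases, against 715) lay on the 3' side. With the gene divided into 10 equal bins from the 5' end, the number of genes covered at the midpoint of the bin was 15, 14, 18, 22, 29, 32, 33, 34, 33 and 33 of 44. Clusters of 33 genes reached within 3 bases of the 3' end of the gene, and those of 16 genes began within 3 bases of its 5' end.

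Among the listed clusters, none of which ran more than 1 base past its gene, the end point recurred from gene to gene. This trait is one of the list: of 40 reproducible tRNA clusters that it leaves out, 33 were longer than their gene. In 27 of the 44 genes the last covered base lay 1 or 2 bases before the end of the gene, and in 11 it lay more than 3 bases before it. In 22 genes the first covered base lay beyond position 20. The tilt was found on both strands, in 15 of 18 genes on the plus strand and 17 of 26 on the minus strand. The extremes were F14F7.t1 and T04D3.t4, with no covered base past the midpoint, and 7 genes with none before it.

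**Figure D1:**
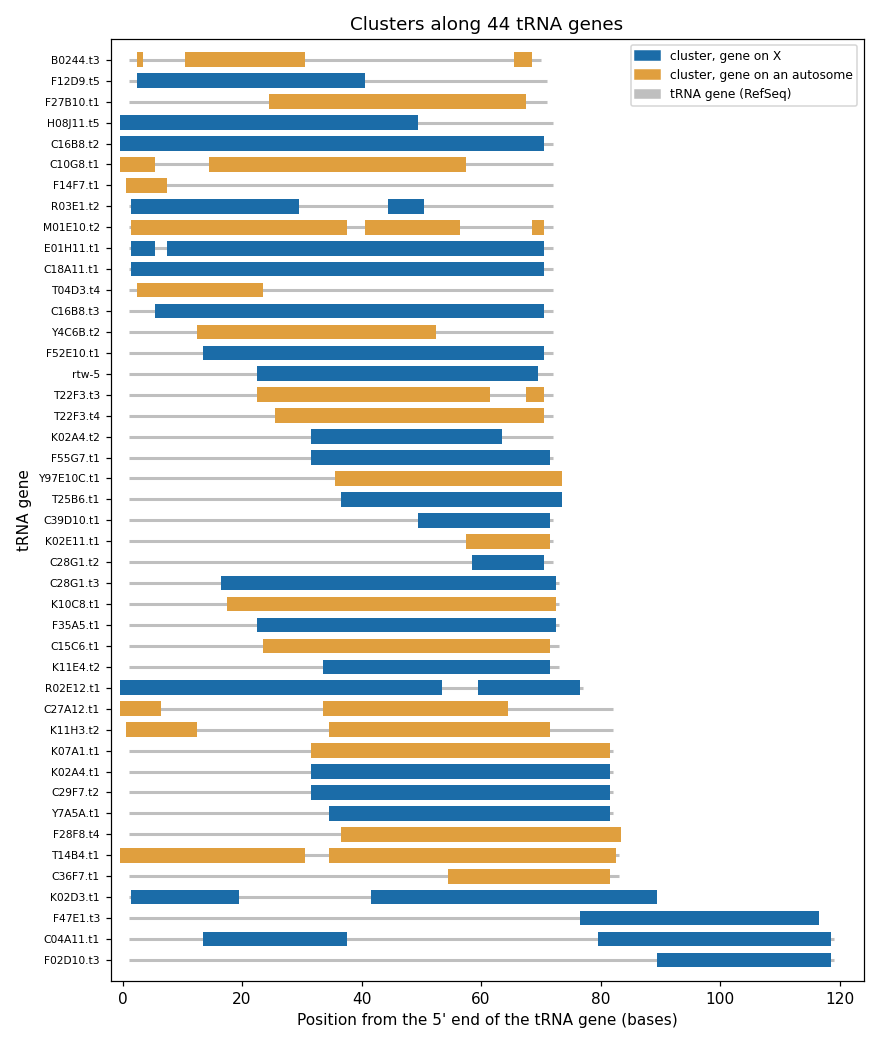
Clusters (coloured bars, blue for genes on X and orange for genes on an autosome) along each of the 44 tRNA genes (grey lines), with the position in bases from the 5' end of the gene on the horizontal axis and 1 gene per row, ordered by length. Coverage crowds toward the right end of the lines, and 12 genes carry 2 or 3 separate bars.

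Some genes of one length were covered at the same positions. Among the 11 members of 76 to 99 bases, the clusters of K07A1.t1 on chromosome I and of K02A4.t1 and C29F7.t2 on X each ran from position 32 to position 81 of an 82-base gene. Their reads differed all the same. K02A4.t1 had 1257, 122 and 499 CLIP reads in replicates 1, 2 and 3, against 55, 14 and 36 input reads. C29F7.t2 had 243, 32 and 139 reads in CLIP, against 4, 2 and 4 in Input, and K07A1.t1 had 363, 17 and 139 reads in CLIP, against 9, 7 and 11 in Input. In K07A1.t1 the replicate 2 libraries showed almost no difference, with a library-scaled log2 ratio of 0.06, while replicates 1 and 3 gave 4.86 and 3.22. This ratio is the log2 of CLIP reads per CLIP total over input reads per input total within a replicate.

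Most tRNA genes had a single cluster. There were 32 genes with 1 cluster, 10 with 2 and 2 with 3, namely B0244.t3 and M01E10.t2 on chromosome III. Of the 319 other genes in the list, 135 had 2 or more. The clusters of one tRNA lay close together, with a widest gap between neighbours of 2 to 42 bases (median 13.5) in the 12 genes that had several.

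Those neighbouring clusters held nearly the same number of reads. In R02E12.t1 on X both clusters had 228, 22 and 90 reads in CLIP, against 10, 1 and 2 in Input, identical in all 6 libraries. In M01E10.t2 the 3 clusters had 806, 792 and 747 CLIP reads in replicate 1 and 15 input reads each. In B0244.t3 they had 311, 301 and 298 CLIP reads in replicate 1, against 11 input reads each. Over the 12 genes, the cluster with fewest CLIP reads had at the median 96.1%, 100% and 95.2% of the reads of the one with most in replicates 1, 2 and 3. Input reads differed by at most 1 in 11 of the 12 genes. The exception among CLIP libraries was K11H3.t2 on chromosome III, whose cluster on the 5' side had 47, 9 and 21 CLIP reads and that on the 3' side 62, 22 and 20, against 1 input read each in every replicate, so that replicate 2 differed most. Clusters of one tRNA are therefore not independent counts, and sums of reads below use 1 cluster per gene, the one with most CLIP reads.

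The tRNA clusters were short. Their median length was 38 bases (quartiles 18.5 and 48, range 1 to 71), against 87 bases (66 and 115, range 2 to 292) for the other 578 listed clusters. Of the 12 listed clusters of at most 10 bases, 9 were in tRNAs, and of the 26 of at most 20 bases, 16. The shortest was the 1-base cluster at position 3 of B0244.t3, which had 298, 32 and 76 reads in CLIP, against 11, 1 and 5 in Input. The longest, 71 bases in C16B8.t2 on X (3970095 to 3970165, plus strand), ran from 1 base before the gene to position 70 of 72.

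Short clusters were no poorer in reads. The 22 tRNA clusters of at most 30 bases had median CLIP counts of 299.5, 31 and 78.5, against median input counts of 10, 1 and 5, and the 36 longer ones 224.5, 22 and 73.5 CLIP reads against 4.5, 2 and 3 input reads. Of the short ones, 15 of 22 belong to genes with several clusters, whose reads are shared as above. The median library-scaled log2 ratio was 3.63 ± 1.04 in the short clusters and 3.56 ± 1.14 in the longer ones (SD of the 3 replicate medians). Both SDs hold the difference between replicates, which the 2 sets share. By replicate the medians were 4.69, 2.61 and 3.59 in the short clusters and 4.52, 2.30 and 3.87 in the longer ones.

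The list leaves out a different kind of tRNA cluster. Among the 736 reproducible clusters, 100 are not in the uniquely annotated list, and 40 of these lay on a tRNA gene of the same strand, in 39 further genes. No tRNA gene had clusters of both kinds. Inside the list 0 of 58 clusters spanned the whole tRNA gene, whereas outside it 31 of 40 did, and their median length was 76 bases (quartiles 74 and 79). An intron of a protein-coding gene on the same strand surrounded 38 of these 40, which gives them more than one annotation. That goes with the place of the gene, so the lack of genes with both kinds was largely set by the list.

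The order of the median ratios inside and outside the list differed by replicate. Median CLIP counts were 238.5, 22.5 and 77.5 inside it and 154.5, 23 and 44 outside it, with median input counts of 7.5, 1 and 3.5 inside and 4, 1 and 2 outside. The median ratio was 3.56 ± 1.13 inside and 3.72 ± 1.03 outside (SD of 3 replicate medians). By replicate it was 4.60, 2.36 and 3.72 inside and 4.57, 2.58 and 4.02 outside. With both kinds together, 83 tRNA genes, or 13.6% of the 612 nuclear tRNA genes in RefSeq, had a reproducible cluster.

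**Figure D2:**
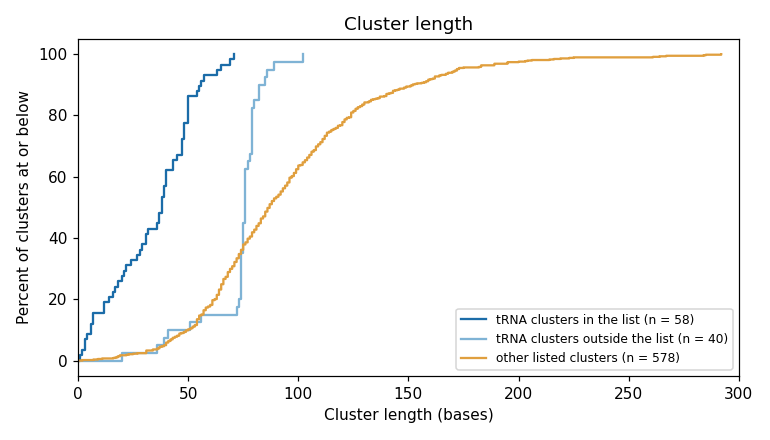
Cumulative percent of clusters (vertical axis) by length in bases (horizontal axis) for the 58 listed tRNA clusters, the 40 tRNA clusters outside the list and the 578 other listed clusters. The listed tRNA clusters lie left of both others, and those outside the list rise steeply near 76 bases.

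Most tRNA genes with a listed cluster lay on X. Chromosome X held 30 of the 58 tRNA clusters (51.7%, 95% Wilson interval 39.2 to 64.1) and 25 of the 44 genes (56.8%). It also holds 276 of the 612 nuclear tRNA genes in RefSeq (45.1%), so the interval of the clusters, which treats them as independent, includes the genome share. Of the other listed clusters on nuclear chromosomes, 22 of 577 (3.81%) lay on X. Chromosomes V, III and I followed with 8, 4 and 5 tRNA genes, carrying 10, 9 and 6 clusters. Chromosome II had only T14B4.t1 with 2 clusters, and chromosome IV only Y4C6B.t2 with 1.

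Set against the tRNA genes present, 7.19% of all nuclear ones had a listed cluster. The share was 10.3% on V, 9.06% on X, 7.58% on I, 6.25% on III, 1.75% on II and 1.41% on IV. The tRNA clusters outside the list were less concentrated, with 13 of 40 (32.5%) on X, 5 on II and 6 on IV. The shares by chromosome, among them the low ones on II and IV, therefore describe the list alone. Members inside the span of a protein-coding gene numbered 11 of 44 (25%), against 291 of 612 nuclear tRNA genes (47.5%). That share is set in part by the list, since 38 of the 40 tRNA clusters it leaves out lie in an intron of a protein-coding gene on the same strand. Pairs of members within 1000 bases of each other occurred 4 times, all on X: C16B8.t2 with C16B8.t3 at 97 bases, C28G1.t3 with C28G1.t2 at 143, K02A4.t1 with K02A4.t2 at 263 and C29F7.t2 with F02D10.t3 at 661. By gene length, 3 members of 100 bases or more (F47E1.t3, C04A11.t1 and F02D10.t3, all on X) stand beside 9 such genes in RefSeq.

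**Figure D3:**
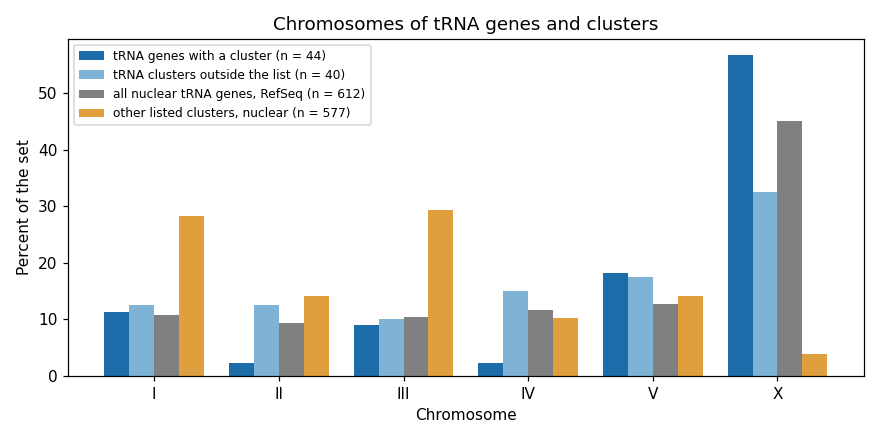
Percent of each set (vertical axis) on each nuclear chromosome (horizontal axis) for tRNA genes with a listed cluster, tRNA clusters outside the list, all nuclear tRNA genes of RefSeq and the other listed clusters. On X the bars stand at 56.8%, 32.5%, 45.1% and 3.81%.

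Genes on X had more reads in both kinds of library. Their median CLIP counts were 298, 30 and 107 over 25 genes, against 181, 16 and 53 over 19 autosomal genes. Their median input counts were 10, 2 and 6, against 4, 1 and 2. X genes held 77.0%, 76.4% and 76.9% of the CLIP reads in tRNA clusters and 82.7%, 73.3% and 85.0% of the input reads. The median ratio was 3.38 ± 0.95 on X and 3.45 ± 1.38 on autosomes (SD of 3 replicate medians). By replicate it was 4.24, 2.36 and 3.52 on X and 4.66, 1.95 and 3.74 on autosomes, so the order differed by replicate. Without R03E1.t2, an X gene that took 36.2% of the tRNA reads of input replicate 3, the X share was 75.7%, 74.3% and 75.4% of CLIP reads and 79.3%, 68.8% and 76.5% of input reads.

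Library totals, recovered from the deposited statistics, were 5776871, 5762110 and 5775666 reads for CLIP and 4159091, 2470561 and 4248480 for Input. The 3 CLIP totals are nearly equal, and it is not known if they are the depths of separate libraries. At 1 cluster per gene, tRNA genes held 17148, 1722 and 5305 CLIP reads, which is 0.297%, 0.0299% and 0.0919% of the totals. Input reads in them numbered 763, 146 and 494, or 0.0183%, 0.00591% and 0.0116%. The CLIP share was thus 16.2, 5.06 and 7.90 times the input share, while for the other listed clusters it was 17.5, 6.54 and 11.1 times. The figures for the others take every cluster of a gene. They also include 1 cluster of 156 bases with 2864, 447 and 3293 of their 4422, 1683 and 4841 input reads. That cluster weighs on them, and the 2 sets of figures are not like for like. CLIP replicate 2 had the lowest share of its total in 42 of 44 genes and CLIP replicate 1 the highest in 43.

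Reads were concentrated in a few genes, whichever library was read. The 5 genes with most reads held 41.1%, 41.9% and 41.0% of tRNA reads in the CLIP libraries and 52.9%, 42.5% and 60.9% in the inputs. F52E10.t1 (WBGene00014384, X, cluster at 16273780 to 16273836, plus strand, 72-base gene) led with 2244, 226 and 513 reads in CLIP, against 64, 5 and 39 in Input. C16B8.t2 (WBGene00022928) had 1701, 148 and 455 reads in CLIP, against 85, 9 and 22 in Input. All 3 CLIP libraries of these genes lay above all 3 of their inputs. Scaled to library totals (CPM) and divided by gene length, CLIP levels of F52E10.t1 were 5.40, 0.545 and 1.23 CPM per base, those of C16B8.t2 were 4.09, 0.357 and 1.09, those of K02A4.t1 2.65, 0.258 and 1.05, and those of R03E1.t2 2.19, 0.337 and 0.762.

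Median input reads were higher at tRNA clusters than at the other listed clusters in replicates 1 and 3. The median tRNA cluster had 238.5, 22.5 and 77.5 reads in CLIP, against 7.5, 1 and 3.5 in Input. The median of the other clusters was 65, 16 and 41 CLIP reads, against 1 input read in each replicate. At 1 cluster per gene, the tRNA medians were 7, 2 and 3.5 input reads. No deposited count is 0, so an input count of 1 may stand for 0. Input counts were 1 in all 3 inputs for 13 of 58 tRNA clusters (22.4%) and for 228 of the other 578 (39.4%), and above 1 in all 3 for 25 of 58 (43.1%) and 110 of 578.

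**Figure D4:**
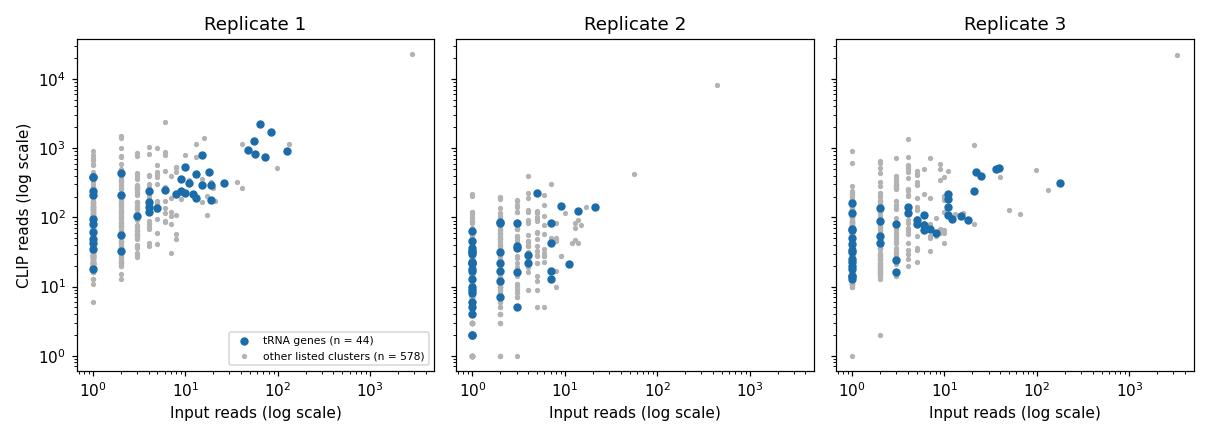
CLIP reads (vertical axis, log scale) against input reads (horizontal axis, log scale) in each replicate, with 1 cluster for each of the 44 tRNA genes (blue) and the 578 other listed clusters (grey). The tRNA genes reach 126, 21 and 179 input reads in replicates 1, 2 and 3, and in replicate 2 both kinds of library are sparse.

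The library-scaled log2 ratio of tRNA clusters had medians of 4.60, 2.36 and 3.72 in replicates 1, 2 and 3, a mean of 3.56 ± 1.13 (SD, n = 3), beside 3.81 ± 1.51 for the other clusters. These SDs hold the difference between replicates, which both sets share, so they do not measure the difference between the sets. Where the input count was above 1 in all 3 inputs, and the ratio rests on more reads, the 25 tRNA clusters had medians of 3.85, 1.87 and 3.27, and the 110 others 5.25, 2.31 and 4.61. This choice, made after seeing the data, filters on the denominator of the ratio and leaves unlike inputs, with medians of 15, 4 and 11 reads in the tRNA clusters and 4, 4 and 4 in the others, so the lower tRNA values in it are a description. Over all clusters the order differed by replicate, with 4.60, 2.36 and 3.72 for tRNA clusters and 4.96, 2.10 and 4.36 for the others.

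The authors' deposited table gives a p-value below 0.05 for 58, 36 and 58 of the 58 tRNA clusters in replicates 1, 2 and 3, against background shares of 99.8%, 46.7% and 99.5% over the whole list. By the authors' deposited table, 36 of 58 (62.1%) passed in all 3 replicates, with a background of 46.1%. On X, 19 of 25 genes passed in all 3, and on autosomes 7 of 19, beside the higher read counts of the X genes. The ratio was above 0 in all 3 replicates for 53 clusters (91.4%, with 89.6% over the whole list). The 5 others, in C15C6.t1, F14F7.t1, T22F3.t4, F28F8.t4 and Y7A5A.t1, were below 0 in replicate 2 only, on 2, 2, 5, 13 and 21 CLIP reads against 1, 1, 3, 7 and 11 input reads.

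Across the whole table of 736 clusters, edgeR's quasi-likelihood test with library totals as sizes called 450 of 463 tested clusters higher in CLIP than in input at a Benjamini-Hochberg adjusted p under 0.05 (97.2%, and 99% of the uniquely annotated ones tested). Of the 58 tRNA clusters, 45 in 34 genes had counts high enough to be tested, and 43 of these 45 were higher. That share lies near the background. The median log2 fold change of the 45 was 3.98, beside 4.44 over all clusters tested. Both figures rest on the scaling. When TMM set the sizes from the clusters themselves, no tRNA cluster was higher, 10 were lower, and the medians were -0.90 for tRNA clusters and -0.15 for all. The tRNA median stayed below that of all clusters with the DESeq2 test (4.01 and 4.54) and the replicate block (3.86 and 4.37). So it did without CLIP replicate 1 (2.64 and 3.94), CLIP replicate 3 (4.15 and 4.55) or Input replicate 2 (3.75 and 3.98). The same held with input counts of 1 taken as 0, in the uniquely annotated clusters alone and with 1 cluster per gene. The order turned or vanished at 3.88 and 3.84 without the filter and 4.40 and 4.40 without CLIP replicate 2. It turned too at 4.39 and 3.79 without Input replicate 1 and 3.79 and 3.72 without Input replicate 3. Those fits tested 680 to 736 clusters, beside 463 in the main fit and 731 without Input replicate 2.

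The highest ratio belonged to F47E1.t3 (WBGene00023054, X, 9059279 to 9059318, minus strand), with 378, 22 and 163 CLIP reads against 1 input read in each replicate. Every CLIP library lay above every input, with replicate 2 the lowest. Its ratios of 8.09, 3.24 and 6.91 average 6.08 ± 2.53 (SD, n = 3), and the ratio of reads pooled over replicates and scaled by library totals was 118-fold (95% counting interval 40.1 to 573, with the 3 input reads taken as counted). If those reads stand for 0, the 118-fold value rests on a floor of 3 counts over the 3 inputs. Even then it is not a firm lower bound, since the counting interval reaches down to 40.1. The edgeR log2 fold change was 6.72, and 10.26 with input counts of 1 taken as 0, a value that depends on the prior count. The cluster covers positions 77 to 116, the last part of a 115-base gene and 1 base past it. E01H11.t1 on X followed at 5.81 ± 2.20, with 377, 30 and 69 CLIP reads against 1 input read in each replicate. Intervals here cover counting error only, since PCR copies are not independent molecules.

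Further genes near the top were K02D3.t1 on X at 5.36 ± 2.63, Y4C6B.t2, the single member on chromosome IV, at 5.30 ± 1.89, and F12D9.t5 on X at 5.25 ± 1.97 (SD, n = 3). K02E11.t1 on chromosome V varied least among the leading genes, at 5.00 ± 0.58, with 430, 63 and 138 reads in CLIP, against 13, 1 and 2 in Input. Its 14-base cluster ends 1 base before the end of the gene. C36F7.t1 (4.47 ± 1.70), M01E10.t2 (4.36 ± 0.70), C29F7.t2 (4.30 ± 1.38) and K11H3.t2 (4.2 ± 1.16) completed the 10 highest genes. Every one of these 10 had an edgeR adjusted p below 0.05, the largest being 4.65e-05 for M01E10.t2. Under TMM the 5 highest were not called, with log2 fold changes between 0.98 and 1.93.

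R03E1.t2 (WBGene00014476, X) was the lowest and is the one tested gene that edgeR did not call. Its longer cluster (14162069 to 14162096, minus strand, positions 2 to 29) had 912, 140 and 317 reads in CLIP, against 126, 21 and 179 in Input, the highest input of any tRNA gene in each replicate. CLIP replicate 2 lay below Input replicate 3, so the groups overlap. The ratios were 2.38, 1.52 and 0.38, with a mean of 1.43 ± 1.00 (SD, n = 3). The edgeR log2 fold change was 1.55 with an adjusted p of 0.116, and 1.54 with 0.118 for its 6-base cluster at positions 45 to 50. Leaving out CLIP replicate 2 gave the longer cluster an edgeR adjusted p of 0.00457, and leaving out any other single library gave 0.145 to 0.571.

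F28F8.t4 on chromosome V came next at 1.78 ± 2.03, with 221, 13 and 93 reads in CLIP, against 12, 7 and 18 in Input, and its CLIP and input counts overlap. By edgeR the adjusted p was 0.0111, and it rose above 0.05 when CLIP replicate 1 (0.0925), Input replicate 1 (0.0698) or Input replicate 2 (0.0605) was left out. Y7A5A.t1 on X stood at 2.17 ± 2.29, with 237, 21 and 96 reads in CLIP, against 9, 11 and 12 in Input, groups that do not overlap in raw reads. Here edgeR gave an adjusted p of 0.00672, which went above 0.05 on leaving out CLIP replicate 1 (0.0514), Input replicate 1 (0.0647) or Input replicate 3 (0.0555). C04A11.t1 on X, whose clusters are 42 bases apart in a 119-base gene, had a ratio of 2.49 ± 0.88 and an edgeR adjusted p of 0.00424. Under TMM, R03E1.t2, F28F8.t4, Y7A5A.t1 and C04A11.t1 were lower in CLIP.

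**Figure D5:**
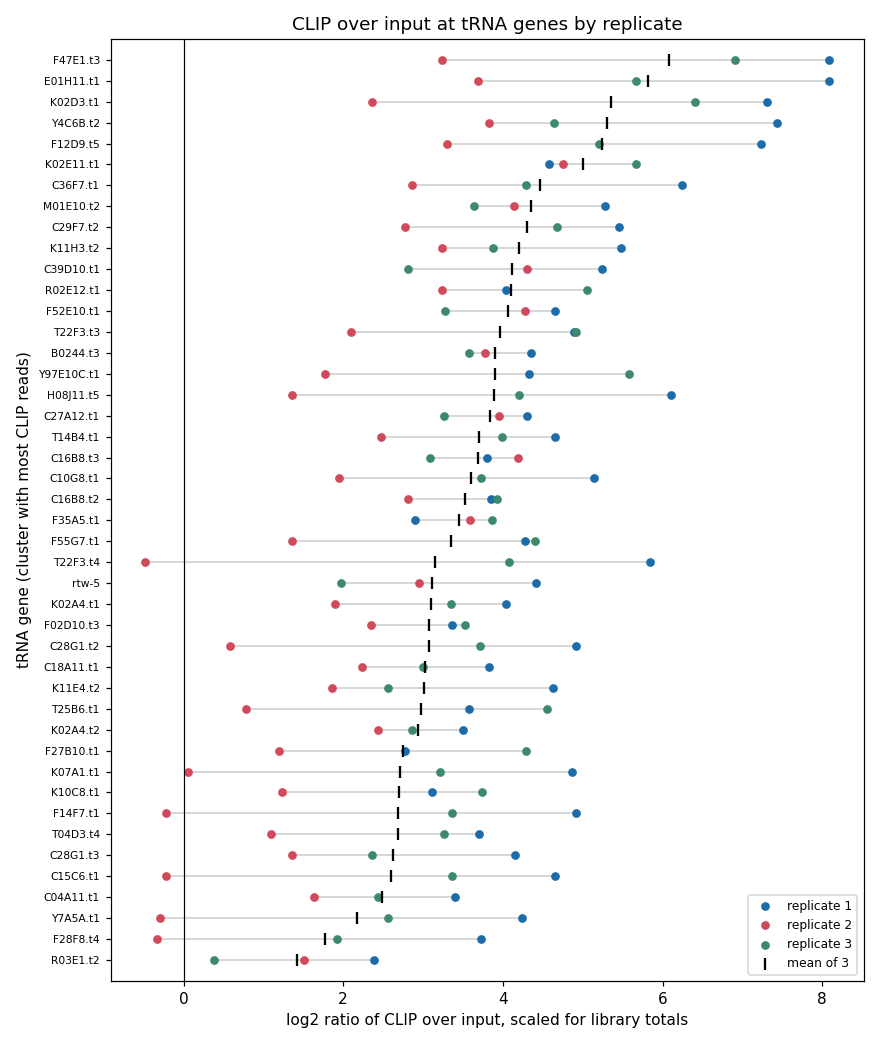
Library-scaled log2 ratio of CLIP over input (horizontal axis) in replicates 1, 2 and 3 (coloured points) and their mean (black tick) for the cluster with most CLIP reads of each of the 44 tRNA genes, ordered by mean. Replicate 2 gave the lowest ratio in 34 of 44 genes, and means run between 1.43 for R03E1.t2 and 6.08 for F47E1.t3.

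The order of genes by reads was stable between CLIP libraries while the order by ratio was less so. Over the 44 genes, log2 CLIP reads had Pearson correlations of 0.908 (replicates 1 and 2), 0.905 (1 and 3) and 0.822 (2 and 3). Over the other 578 clusters these were similar, at 0.869, 0.917 and 0.799. The rank (Spearman) correlations were 0.886, 0.884 and 0.746 over the tRNA genes, against 0.887, 0.897 and 0.817 over the others. The ratios of the tRNA genes had Pearson correlations of 0.246, 0.626 and 0.283, against 0.690, 0.737 and 0.591 over the other 578 clusters. By rank these were 0.258, 0.480 and 0.232, against 0.7145, 0.717 and 0.625. CLIP and input reads of one replicate had Pearson correlations of 0.775, 0.509 and 0.765 over tRNA genes, against 0.519, 0.494 and 0.514 over the others. Genes of one library share its depth, and many inputs are at 1 read, so these are descriptions of the libraries.

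Genes that make and use tRNAs were counted beside all protein-coding genes, of which 290 of 19983 in RefSeq (1.45%) had a listed cluster. The lists are small, and no difference from that share was tested. They were chosen with earlier results of these data known, so their shares are a description. Only listed symbols that matched RefSeq were counted, such as 23 of 35 for tRNA processing, modification and export. Of 34 aminoacyl-tRNA synthetase genes, which load the amino acid, 2 (5.88%) had one, both in the 3' UTR. The mitochondrial enzyme gene iars-2 had 16, 1 and 14 reads in CLIP, against 1, 3 and 1 in Input, with overlapping groups and a ratio of 1.36 ± 3.61. The tryptophanyl enzyme gene wars-1 had 20, 7 and 19 CLIP reads against 1 input read each, at 3.08 ± 1.29 (SD, n = 3). None of these clusters passed the filter on low counts. RNA polymerase III genes had a cluster in 0 of 21, and at a share of 1.45% a count of 0 in 21 genes says nothing about them.

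Of 23 genes for tRNA processing, modification and export, 2 (8.70%) had clusters, beside the 1.45% of all protein-coding genes. For nsun-2, a tRNA cytosine methyltransferase, the highest of 3 clusters lay in the 3' UTR with 136, 24 and 87 CLIP reads against 1 input read each, a ratio of 5.33 ± 1.73 and an edgeR adjusted p of 6.9e-06. For alkb-8, which modifies the wobble uridine, the highest of 2 clusters had 63, 18 and 34 CLIP reads against 1 input read each, a ratio of 4.37 ± 1.3 and an edgeR adjusted p of 4.03e-06. A list of 17 genes held translation factors that bind tRNA or act beside it, and also larp-1, a La-related RNA-binding protein. Of the 17, 3 (17.6%) had clusters: eif-2alpha and eif-2gamma, subunits of the factor that brings the initiator tRNA, and larp-1. The higher of 2 eif-2alpha clusters, in the 3' UTR, had 1031, 192 and 661 reads in CLIP, against 4, 4 and 2 in Input, a ratio of 6.61 ± 1.95 and an edgeR adjusted p of 3.25e-06. The eif-2gamma cluster lay in an intron at 2.90 ± 1.33 and did not pass the filter, and the higher larp-1 cluster lay in the 3' UTR at 3.48 ± 1.40, with an edgeR adjusted p of 0.000589. Y92H12BL.1, annotated in the deposited file as a tRNA methylthiotransferase and picked out after its values were seen, had 5 clusters in its 3' UTR with mean ratios between 4.48 and 6.55.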

How the data were processed

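ADR-1 CLIP and size-matched input were sequenced in 3 libraries each. The submitters' processing notes name fastp 0.21.0, STAR 2.7.10b and the build names ce11 and WBcel235, and the file captions name CLIPPER as the cluster caller. For each cluster the authors deposited raw read counts, a p-value, a log2 fold and a chi-square score per replicate. Totals were recovered by fitting the deposited score, which came out within rounding for 130 of 130, 73 of 76 and 116 of 116 scores, and gave the library-scaled log2 ratios. All 736 clusters were fitted with edgeR 4.0.16 (glmQLFit and glmQLFTest, filterByExpr with a minimum count of 10, sizes equal to the totals, Benjamini-Hochberg adjustment, no replicate block) in R 4.3.3, and only tRNA clusters were read out. The test was tried on simulated counts. DESeq2 1.42.0 was an alternative, with TMM, no filter, the block and each library left out. Same-numbered libraries share a lysate, per the labels' protocols, which pairs them, and their deviations from the group means correlated at 0.309, 0.0971 and 0.00307 over 736 clusters.

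Genes were named by rule: all with several clusters, the 10 with the highest mean ratio, the 5 clusters with the lowest ratio and the 5 with most CLIP reads, the longest and shortest cluster, and up to 4 bound genes per list. Members, lists and rules were chosen with earlier results of these data known. Of the listed symbols, 20 matched no RefSeq symbol and were left out. No genome sequence was used here, so no tRNA sequence or anticodon is given. The 22 mitochondrial tRNA genes of RefSeq were left out of the background, and no member is among them.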

Additional observations from a re-analysis of the deposited data

How the results depend on the processing

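The count of 43 tRNA clusters higher in CLIP became 0 under TMM scaling and 0 under DESeq2 size factors, both of which set sizes from clusters chosen for enrichment. It was 43 with the DESeq2 test, with the replicate block (the same 43 clusters), with input counts of 1 taken as 0 and in a fit of the uniquely annotated clusters alone, 56 of 58 without the filter and 33 of 34 with 1 cluster per gene, an alternative chosen after seeing the data. Leaving out 1 library gave 36 to 57. Under TMM and DESeq2 size factors in turn, log2 fold changes were -3.32 and -3.42 for the longer R03E1.t2 cluster, -3.33 and -3.43 for the shorter, -2.44 and -2.52 for F28F8.t4, -2.11 and -2.17 for Y7A5A.t1 and -1.96 and -2.05 for C04A11.t1. The median ratio of tRNA clusters was 3.04 to 4.16 with 1 replicate left out (3.3 to 4.29 for those outside the list) and 3.00 with inputs above 1 in all 3, also chosen after seeing the data. The share on X was 66.7% among clusters below 0.05 in all 3 replicates. When the 40 tRNA clusters outside the list were added, it was 43.9%, against 45.1% of nuclear tRNA genes, and the median length was 49 bases. Many inputs were sparse: the input was 1 read at 14, 30 and 20 of the 58 tRNA clusters in replicates 1, 2 and 3. At the other listed clusters the share with 1 input read was 62.3%, 61.6% and 60.2%. The part played by depth was not tested.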

Other observations

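One listed cluster outside tRNAs, 156 bases long, held 22978, 8184 and 21936 CLIP reads and 2864, 447 and 3293 input reads, which weighs on any share taken of all cluster reads. With it, tRNA genes at 1 cluster per gene made up 13.8%, 6.28% and 6.78% of the CLIP reads in listed clusters and 14.7%, 7.98% and 9.26% of the input reads. Without it they made up 16.9%, 8.96% and 9.43% of the CLIP reads and 32.9%, 10.6% and 24.2% of the input reads. In each replicate the tRNA share was lower in CLIP than in input, with or without that cluster. With it, the counting intervals of replicate 1 overlapped, at 13.6 to 14.0% in CLIP and 13.8 to 15.7% in input. The order also leans on R03E1.t2. That gene held 16.5%, 14.4% and 36.2% of the tRNA input reads, against 5.32%, 8.13% and 5.98% of the tRNA CLIP reads. The order without R03E1.t2 was not tested.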
